A study of Mus musculus with 6 samples.

Results

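The MYC, MAX and MXD network is a group of 10 mouse genes, Myc, Mycn, Mycl, Max, Mxd1, Mxd3, Mxd4, Mxi1, Mnt and Mga, that were looked up by name in a table of FPKM values (fragments per kilobase of transcript, scaled to the mapped fragments of each library) for 55401 genes, and all 10 were found. They were chosen by membership of the network and partly by the FPKM values of Myc in these same libraries, which were high and were higher after metformin. Those values are therefore given as a description. Members that passed the level filter are part of a fit over all genes, and nothing is read from its result for them. The libraries are RNA-seq of C57BL/6 mouse cells that the labels call female germline stem cells (FGSCs), grown beyond passage 20 on mitotically inactivated STO feeder cells with leukemia inhibitory factor, EGF, bFGF and GDNF. There were 3 untreated control libraries and 3 libraries from cells given 1 μM metformin, a biguanide used against type 2 diabetes, for 24 h. Both groups shared the strain, the feeders and the medium. Nothing in the labels says that the 3 libraries of a group came from separate cultures, so the spread between them may be technical.

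MYC, MYCN and MYCL are transcription factors that bind DNA only as dimers with MAX, and such dimers raise the transcription of genes for ribosome production, metabolism and cell division. MXD1, MXD3, MXD4, MXI1 and MNT pair with the same MAX protein, bind the same E-box sequence, CACGTG, and recruit SIN3 and histone deacetylases that lower transcription. MGA, a very large protein with a second DNA-binding domain of the T-box kind, also pairs with MAX and works with a Polycomb-type repressor complex that keeps germ cell genes silent in embryonic stem cells. The mRNA of MYC and its protein are both short-lived, and in stem cells and blood progenitors the balance between MYC and its antagonists is known to bear on the choice between division and differentiation.

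Because the dimers of this network bind CACGTG, the E-boxes in the promoters of its own genes are shown. RefSeq promoters (GRCm38.p6) were matched for 9 of the 10 members, all but Myc, as 11 windows that run from 250 bases before to 50 bases after a transcription start. CACGTG, which reads the same on both strands, was in 3 of the 9 genes, namely Max, Mxd4 and Mnt. Among all genes with a window, 2187 of 27025 (8.09%) held it, and among all windows 2349 of 32851 (7.15%). Stretches of 60 bases around each match are printed 5′ to 3′ along the gene's own strand, with the E-box in capitals:
Max, chr12:76962219-76962278, minus strand: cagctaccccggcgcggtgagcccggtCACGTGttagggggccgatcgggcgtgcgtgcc
Mxd4, chr5:34187897-34187956, minus strand: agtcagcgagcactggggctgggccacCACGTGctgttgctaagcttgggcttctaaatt
Mnt, chr11:74830774-74830833, plus strand: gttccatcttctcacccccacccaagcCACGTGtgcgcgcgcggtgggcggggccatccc
Positions are counted from the start on which each window was built, and annotated starts differ. In Max the E-box lies across the start of its window, from position -3 to position 3. The Max gene itself begins at 76962201 in the annotation of the FPKM values and at 76962323 in RefSeq. In Mnt, which begins at 74830920 and at 74830806 in these annotations, the E-box lies from -123 to -118. In Mxd4 it lies from -219 to -214. These matches describe the sequence and say nothing of what was bound there in these cells.

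The libraries were of like depth. From the step that 1 fragment makes in the FPKM of short single-exon genes, they held 13400000 to 14000000 mapped fragments each. At that depth 3 fragments on a transcript of 1 kilobase correspond to 0.214 to 0.224 FPKM, a limit that covers counting error only. Between libraries of the same group the log2 differences over genes had an SD of 0.191 to 0.208. Markers of the labelled cell type were nearly absent: of 12 germ cell genes, 1 (Zbtb16) had a mean of at least 1 FPKM. Listed at 0 in every library were 7, including Dazl, Dppa3 and Pou5f1. Ddx4 averaged 0.0233 FPKM, and Ifitm3 averaged 0.662 FPKM with a highest value of 1.32 FPKM. The 12 genes summed to 1.56 to 2.61 FPKM in control and 1.55 to 1.83 FPKM in metformin libraries. By RT-PCR, the paper reported mRNA of Pou5f1, Ddx4, Dppa3, Ifitm3, Dazl and Prdm1 in its cultured FGSCs, and by staining the Ddx4 protein. All 14 blood cell genes had a mean of at least 1 FPKM, and their sum was 903 to 909 FPKM in control and 928 to 949 FPKM in metformin libraries. Of 12 mast cell and basophil genes, 4 (Kit, Cpa3, Fcer1g and Mitf) reached that mean and 4 (Fcer1a, Tpsb2, Tpsab1 and Prss34) were listed at 0, with sums of 508 to 540 FPKM and 483 to 499 FPKM. No feeder fibroblast gene of 12 reached it, Lum was listed at 0, and the sums were 1.41 to 1.62 FPKM and 1.19 to 1.87 FPKM. The blood cell sum was higher and the mast cell sum lower in all 3 metformin libraries. Single genes weighed heavily in these sums. Gata2 in the former had a mean of 267 FPKM and ran from 254.61 to 278.57 FPKM over the libraries. Cpa3 in the latter had a mean of 352 FPKM and ran from 329.6 to 385.58 FPKM. Also in the mast cell sum, Kit stayed at 116 to 119 FPKM, Fcer1g at 21.1 to 22.9 FPKM and Mitf at 11.4 to 12.1 FPKM. The sums were not split by gene within each group, and their part in the values below was not tested. The cells are therefore called the cultures or the libraries, by their label only.

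**Figure D1:**
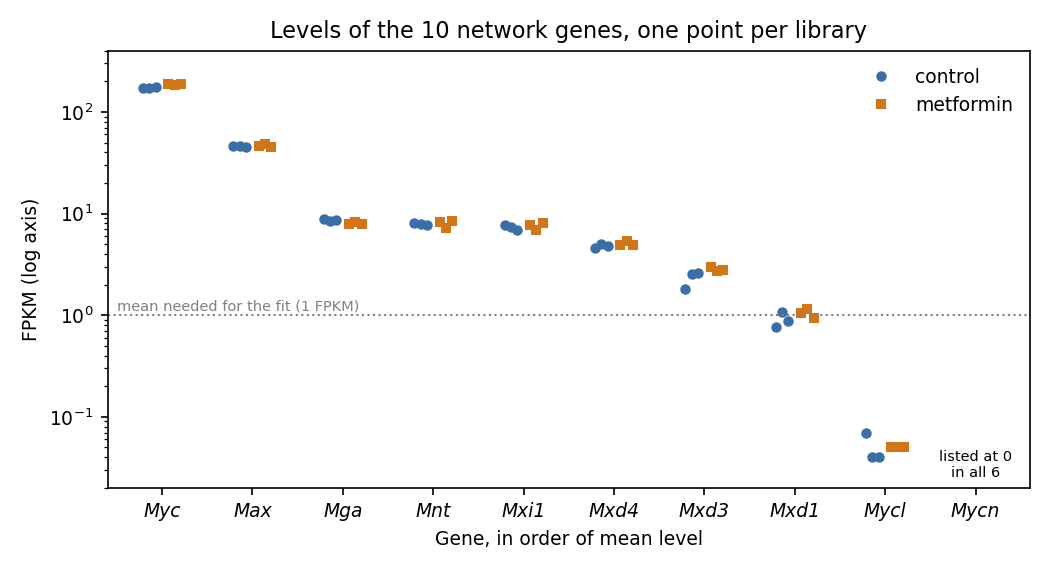
FPKM (log axis) of the 10 network genes in order of mean level, with 1 point per library, blue circles for the 3 control and orange squares for the 3 metformin libraries. Myc stood between 171 and 190 FPKM, Max near 46 FPKM, the antagonists from 0.77 to 8.74 FPKM, Mycl at 0.04 to 0.07 FPKM, and Mycn was listed at 0 in all 6 libraries.

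Of the MYC family, which holds the activating partners of MAX, Myc was present at a high level and its relatives were nearly absent. Myc (ENSMUSG00000022346, chr15:61985391-61990374, plus strand, GRCm38) had 170.95, 173.09 and 176.33 FPKM in control replicates 1, 2 and 3 and 189.70, 185.82 and 188.95 FPKM in metformin replicates 1, 2 and 3. The lowest metformin library lay above the highest control library. Its mean over all libraries ranked 224th among the 10661 genes that averaged 1 FPKM or more, above 97.9% of them. Mycn (ENSMUSG00000037169, chr12:12936093-12941914, minus strand), which replaces Myc in several embryonic tissues, was listed at 0 in all 6 libraries, where 3 fragments would have given 0.0659 FPKM. Mycl (ENSMUSG00000028654, chr4:122995652-123002485, plus strand), the third relative, was listed at 0.07, 0.04 and 0.04 FPKM in control and at 0.05 FPKM in each metformin library. Those values equal about 3 fragments a library, the level at which detection ends.

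Max (ENSMUSG00000059436, chr12:76937269-76962201, minus strand), whose product is the partner shared by the other proteins of the network, was the second most abundant member. It had 46.05, 46.35 and 45.36 FPKM in control and 46.32, 48.09 and 45.25 FPKM in metformin libraries, so that the groups overlapped and the metformin group held both the highest and the lowest value. Max ranked 1272nd of the 10661 genes. A gene without a symbol on the same strand, ENSMUSG00000112008, overlaps it by 1319 bases at a mean of 0.872 FPKM.

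Among the antagonists, Mga, Mnt and Mxi1 lay close together and the MXD genes spread below them. Mga (ENSMUSG00000033943, chr2:119897228-119969581, plus strand) had 8.74, 8.49 and 8.62 FPKM in control and 7.89, 8.27 and 7.94 FPKM in metformin libraries, with every metformin library below every control library. Mnt (ENSMUSG00000000282, chr11:74830920-74845725, plus strand), the antagonist that dividing cells also express, had 8.00, 7.85 and 7.65 FPKM against 8.21, 7.27 and 8.52 FPKM. Mxi1 (ENSMUSG00000025025, chr19:53310518-53375810, plus strand), also called MXD2, had 7.73, 7.45 and 6.93 FPKM against 7.66, 6.88 and 8.05 FPKM. For Mnt and for Mxi1 the groups overlapped, and both genes had their lowest value in metformin replicate 2 and their highest in metformin replicate 3. Mxd4 (ENSMUSG00000037235, chr5:34173883-34187720, minus strand), known from differentiating cells, had 4.56, 5.01 and 4.76 FPKM in control and 4.87, 5.42 and 4.86 FPKM in metformin libraries, with overlap. Mxd3 (ENSMUSG00000021485, chr13:55325168-55329823, minus strand), the member of the family known from cells in S phase, had 1.79, 2.57 and 2.63 FPKM in control and 2.95, 2.72 and 2.78 FPKM in metformin libraries. Its groups did not overlap, and control replicate 1 lay well below the other 5 libraries. Mxd1 (ENSMUSG00000001156, chr6:86647042-86669161, minus strand), the founding MXD gene and a marker of terminal differentiation in several lineages, had 0.77, 1.07 and 0.88 FPKM against 1.05, 1.14 and 0.93 FPKM, with overlap.

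FPKM values are per length, so the levels of the 10 genes can be set in order: Myc, Max, Mga, Mnt, Mxi1, Mxd4, Mxd3, Mxd1, Mycl, Mycn. Over the 6 libraries the ranges of Mga and Mnt overlapped, and so did those of Mnt and Mxi1. Mga was above Mnt in 4 of the 6 libraries, whereas Mnt was above Mxi1 in all 6. No other neighbours in the order had overlapping ranges. The ratio of means between neighbours was 3.91 for Myc over Max, 5.55 for Max over Mga and 1.05 for Mga over Mnt. The widest step was 19.5, for Mxd1 over Mycl, where Mycl rests on about 3 fragments a library, and no ratio can be given over Mycn at 0. The order was the same with each library left out in turn and after rescaling every library to the same sum.

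The fragments behind these levels set a counting error for each gene, whereas the spread between libraries was below it for some genes and above it for others. Fragments were estimated with exon lengths of an older annotation (GENCODE M1), since the authors' lengths were not used here. Myc rested on about 6798 fragments a library, for which counting alone gives a CV of 1.21%, and its CV was 1.56% in control and 1.09% in metformin libraries. Mga rested on about 1766 fragments, with a counting CV of 2.38% against 1.45% and 2.57% between libraries. Mnt had about 507 fragments and a counting CV of 4.44%, below the 8.14% found between its metformin libraries. Mxd3 had about 74 fragments and a counting CV of 11.6%, against 20.1% in control and 4.24% in metformin libraries. Mxd1 had about 63 fragments and a counting CV of 12.6%, so that its differences between libraries lay near counting error.

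**Figure D2:**
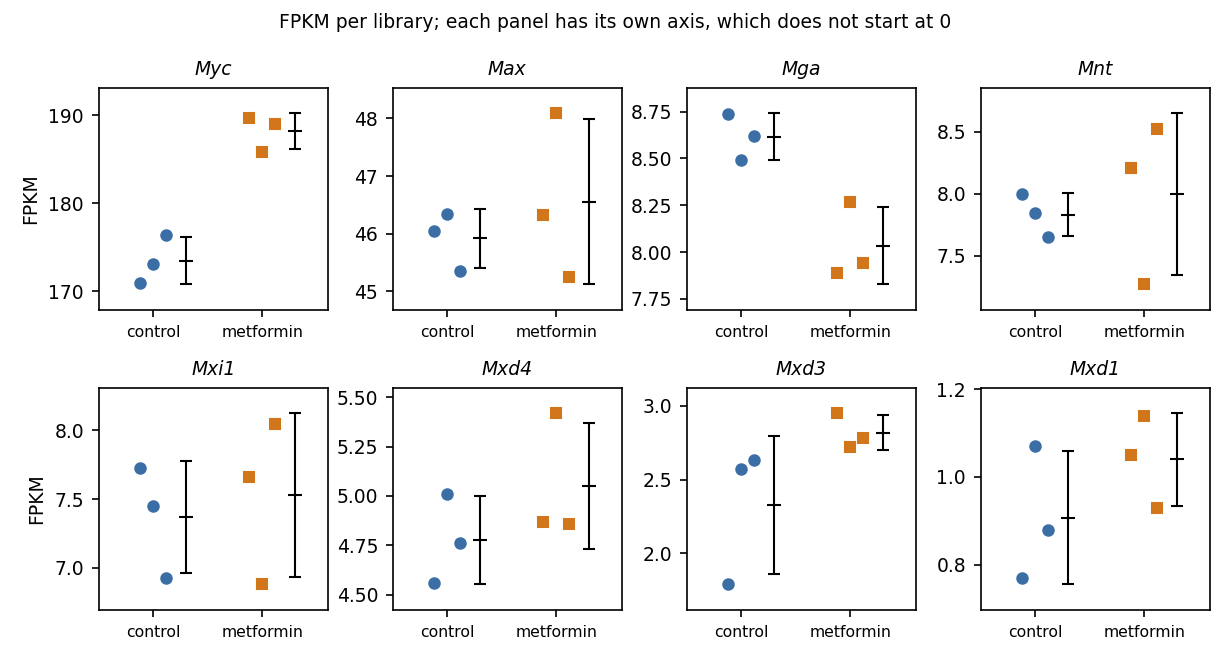
FPKM of the 8 members listed above 0.5 FPKM, 1 panel a gene with its own axis that does not start at 0, blue circles for control and orange squares for metformin libraries, each in the order of replicates 1 to 3, with the group mean and SD beside them. The groups stand apart for Myc and Mxd3, which are higher with metformin, and for Mga, which is lower, and they overlap for the other 5 genes.

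Set side by side, the group means put Myc at 173 ± 2.71 FPKM in control and 188 ± 2.06 FPKM in metformin libraries (SD, n = 3 each), a ratio of 1.08. On the log2(FPKM + 1) scale, where a pseudocount of 1 shrinks the differences of low genes, the difference for Myc was 0.12 ± 0.02 (standard error). For Mga the means were 8.62 ± 0.125 FPKM and 8.03 ± 0.206 FPKM (SD, n = 3 each), a log2 difference of -0.09 ± 0.04. For Mxd3 they were 2.33 ± 0.469 FPKM and 2.82 ± 0.119 FPKM (SD, n = 3 each), a log2 difference of 0.21 ± 0.11, which became 0.08 without control replicate 1. For Max (45.9 ± 0.508 and 46.6 ± 1.43 FPKM), Mnt (7.83 ± 0.176 and 8.00 ± 0.651 FPKM) and Mxi1 (7.37 ± 0.406 and 7.53 ± 0.596 FPKM), the log2 differences were 0.02 ± 0.03, 0.02 ± 0.06 and 0.03 ± 0.06. The sign of these turned when 1 library was left out, with -0.0042 for Max without metformin replicate 2 and -0.02 for Mxi1 and for Mnt without metformin replicate 3, and -0.01 for Mxi1 without control replicate 3. Without metformin replicate 2, Mxi1 and Mnt each gave 0.08. Mxd4 (4.78 ± 0.225 and 5.05 ± 0.320 FPKM) had a log2 difference of 0.07 ± 0.06, which became 0.02 without metformin replicate 2. Mxd1 (0.907 ± 0.152 and 1.04 ± 0.105 FPKM) lay just under the mean of 1 FPKM that the fit required, at 0.973 FPKM, and its log2 difference without that filter was 0.10 ± 0.09.

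Metformin and control libraries were compared with limma over the 10661 genes that averaged 1 FPKM or more, 7 of which are network members, with a threshold of 0.05 on the Benjamini-Hochberg adjusted p. The fit called 3 of the 10661 genes higher (0.0281%) and none lower (0%), and 643 (6.03%) were higher and 513 (4.81%) lower at an unadjusted p under 0.05. Of the 7 members, 0 were called in either direction. Groups did not overlap, with metformin higher, for 2 of the 7 members and 948 of all tested genes (8.89%). They did not overlap, with metformin lower, for 1 member and 864 of all tested genes (8.1%). Since the values of Myc in this contrast were part of the choice, nothing is read from these counts of members. The median log2 difference was 0.03 over the 7 members and 0.0041 over all tested genes, of which the 1st to the 99th percentile ran from -0.32 to 0.35. Fewer cells of a type and less RNA per cell cannot be told apart in such bulk libraries.

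**Figure D3:**
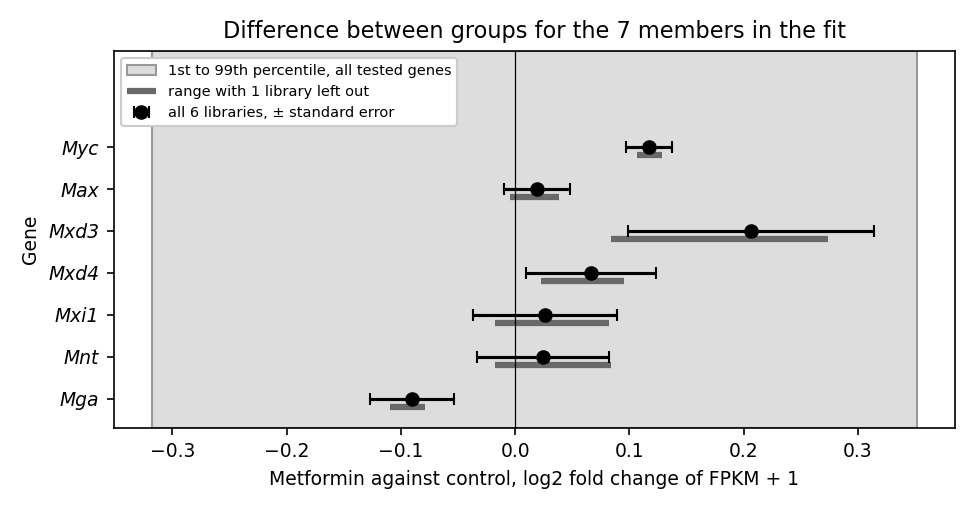
Metformin against control as the log2 difference of FPKM + 1 for the 7 members in the fit, with black points and bars for all 6 libraries ± standard error, dark grey lines for the range when 1 library is left out, and a light band from the 1st to the 99th percentile of the tested genes. All 7 points lie inside the band from -0.32 to 0.35. The leave-one-out ranges of Max, Mxi1 and Mnt cross 0 whereas those of Myc, Mxd3, Mxd4 and Mga do not. For Myc, Mxd3 and Mga, whose groups do not overlap, leaving out 1 library could not turn the sign.

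Mxd3 shares bases with a much more abundant gene. The end of Mxd3 overlaps the end of Prelid1, a gene for a mitochondrial lipid transfer protein on the opposite strand, by 105 bases (chr13:55325168-55325272). Prelid1 had 90.77 to 95.52 FPKM in control and 90.49 to 98.22 FPKM in metformin libraries, with overlap. If its fragments lay evenly along its transcript, about 136 of them a library would fall in those 105 bases, more than the 74 behind Mxd3. The labels name a stranded mRNA kit and the methods another kit, and whether fragments were counted by strand is not given in the sources used here. The part of Prelid1 in the Mxd3 values was not tested.

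As shares, the network mRNA was mostly Myc. The 10 genes summed to 251 ± 2.34 FPKM in control and 267 ± 1.52 FPKM in metformin libraries (SD, n = 3 each). The MYC family made up 69.1 ± 0.524% of that sum in control and 70.4 ± 0.402% in metformin libraries, and the groups did not overlap. Max made up 18.3 ± 0.320% and 17.4 ± 0.609%, with overlap, and the 6 antagonists 12.7 ± 0.226% and 12.2 ± 0.221%, without overlap. As absolute levels the antagonists summed to 31.8 ± 0.529 FPKM and 32.5 ± 0.704 FPKM, with overlap, so that their smaller share went with the larger Myc value. The ratio of Myc to the summed antagonists was 5.45 ± 0.138 in control and 5.80 ± 0.0765 in metformin libraries, and these did not overlap. Myc was chosen partly for its higher values with metformin, and it makes up most of the sum. The separation of the shares and of this ratio therefore restates that choice, and nothing is read from it. The ratio of Myc to Max was 3.78 ± 0.0953 and 4.05 ± 0.162, with overlap, and all partners of MAX together stood at 4.47 ± 0.0969 and 4.74 ± 0.198 times Max, also with overlap. The 4 MXD genes summed to 15.4 ± 0.645 FPKM and 16.4 ± 0.244 FPKM, with the control libraries at 14.85 to 16.10 FPKM and the metformin libraries at 16.16 to 16.62 FPKM. Of the 4 genes only Mxd3 had groups that did not overlap, with the limits of its values given above. The gap between the groups, from 16.10 to 16.16 FPKM, was narrow beside the 1.79 to 2.95 FPKM that Mxd3 spanned. The sum was not taken without Mxd3, whose part in this separation was not tested, and nothing is read from the separation. Within the MXD sum Mxi1 held 48.0% in control and 45.8% in metformin libraries, and Mxd4 held 31.0% and 30.7%. All of these ratios are of mRNA, and protein was not analysed here.

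Next to Myc lies Pvt1, a noncoding RNA gene (ENSMUSG00000097039, chr15:62037986-62378096) that starts 47612 bases beyond the end of Myc. It had 1.84, 1.83 and 1.66 FPKM in control and 1.72, 1.70 and 2.14 FPKM in metformin libraries. These groups overlapped, unlike those of Myc.

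The genes whose profile over the 6 libraries was most like that of Myc were Sars, Hras1, Fam171a2, Limd2 and Pold2, by the root mean square difference of mean-centred log2(FPKM + 1). That difference was 0.0115 for Sars, which encodes the cytosolic seryl-tRNA synthetase, and 0.0122 for Hras1, which encodes the small GTPase HRAS. It was 0.0139 for Fam171a2, 0.0163 for Limd2 and 0.0175 for Pold2, a subunit of DNA polymerase delta, against a median of 0.0845 over all tested genes. A gene with the same value in all 6 libraries would be at 0.0605, so that larger values also reflect how much a gene varied between libraries. Sars had 72.24, 72.87 and 73.66 FPKM in control and 81.16, 77.62 and 79.38 FPKM in metformin libraries. The other network members had ranks by this measure of 2418 for Max, 2820 for Mxd4, 4193 for Mnt, 5616 for Mxi1, 7787 for Mga and 8566 for Mxd3.

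The other arm of the network, in which MLX takes the place of MAX, was given by 3 genes. Mlx had 17.24, 18.82 and 19.25 FPKM in control and 18.75, 18.76 and 19.03 FPKM in metformin libraries. Mlxip, which encodes the glucose-sensing factor MondoA, had 8.98, 8.67 and 8.28 FPKM against 8.39, 8.49 and 8.79 FPKM. Both overlapped between the groups, and Mlxipl, which encodes the related factor ChREBP of liver and fat, stayed at or below 0.08 FPKM. Neither of the 2 tested genes was called by limma, where 0.0281% of all tested genes were called higher and 0% lower. Nor did either have an unadjusted p under 0.05, where 6.03% of all tested genes were higher and 4.81% lower. The median log2 difference of 0.01 turned negative in 2 of 13 alternatives.

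Genes that MYC is known to activate were described next. For the nucleolar and ribosome production genes, all 34 listed were tested, 0 were called by limma after adjustment, and 1 was higher and 4 lower at an unadjusted p under 0.05, where 6.03% and 4.81% of all tested genes were. Groups did not overlap for 5 higher and 4 lower genes, against 8.89% and 8.1% of all tested genes, and the median log2 difference was -0.00305, against 0.0041 over all tested genes. The median turned positive in 1 of 13 alternatives. Gnl3 (nucleostemin) averaged 49.9 ± 1.40 FPKM in control and 45.7 ± 1.15 FPKM in metformin libraries, a log2 difference of -0.12 ± 0.03 (limma adjusted p = 0.338). Mphosph10, a component of the processing complex for small subunit rRNA, averaged 36.3 ± 0.516 FPKM and 33.5 ± 0.873 FPKM (limma adjusted p = 0.346). The other 2 lower genes were Npm1, at 842 and 804 FPKM, and Ncl, at 282 and 271 FPKM, the genes of the list with the highest mRNA levels. Both were named after their values had been seen, and the groups of Ncl overlapped. Fbl, the fibrillarin methyltransferase, was the 1 higher gene, at 51.5 ± 0.295 FPKM and 53.4 ± 0.658 FPKM (limma adjusted p = 0.455).

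Of 40 metabolic and cell cycle targets, 39 were tested, 0 were called by limma, and 5 were higher and 3 lower at an unadjusted p under 0.05 (6.03% and 4.81% of all tested genes). The groups did not overlap for 8 higher and 6 lower genes (8.89% and 8.1% of all tested genes), and the median log2 difference was 0.01. Dusp2, a nuclear phosphatase of MAP kinases, averaged 6.43 ± 0.352 FPKM in control and 7.38 ± 0.156 FPKM in metformin libraries (log2 difference 0.18 ± 0.05, limma adjusted p = 0.346). Dctpp1, which clears modified cytidine nucleotides, averaged 116 ± 3.49 FPKM and 127 ± 6.51 FPKM (limma adjusted p = 0.369). The other 3 higher genes, named after their values were seen, were Srm (spermidine synthase, 253 and 269.9 FPKM), Farsa (31.6 and 33.8 FPKM) and Cad (97.0 and 101 FPKM). Tfrc, the transferrin receptor, averaged 321 ± 3.94 FPKM and 302 ± 6.92 FPKM (log2 difference -0.09 ± 0.02, limma adjusted p = 0.331). Cbx3, which encodes the heterochromatin protein HP1 gamma, averaged 37.6 ± 0.731 FPKM and 35.3 ± 0.225 FPKM (limma adjusted p = 0.350). Ndufaf4, an assembly factor of respiratory complex I and likewise named after its values were seen, was the remaining lower gene at 37.0 and 35.1 FPKM. Odc1, the ornithine decarboxylase long used as a MYC target, stood at 173 and 178 FPKM. Ldha, the lactate dehydrogenase of glycolysis, stood at 572 and 583 FPKM. Neither had an unadjusted p under 0.05, but both were among the 8 higher genes without overlap. Odc1 and Ldha were likewise named after their values were seen. Tert, the telomerase subunit, was under the filter at 0.897 and 0.833 FPKM.

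Of 13 genes that MYC is known to repress, 8 were tested, 0 were called by limma, and 3 were higher and 0 lower at an unadjusted p under 0.05, each of the 3 without overlap between groups. Of all tested genes, 6.03% were higher and 4.81% lower at that p, and 8.89% were higher without overlap. The median over the list log2 difference was 0.06. Gadd45a, a stress-induced growth arrest gene, had 2.71, 3.49 and 2.43 FPKM in control and 4.77, 3.57 and 4.15 FPKM in metformin libraries, a log2 difference of 0.42 ± 0.12 (limma adjusted p = 0.350). Its highest control library lay just under its lowest metformin library. Ndrg1, named for its repression by N-Myc, had 3.73, 3.71 and 3.66 FPKM against 4.63, 4.35 and 4.81 FPKM, a log2 difference of 0.25 ± 0.05 (limma adjusted p = 0.301). The third, Fth1, the heavy chain of the iron store ferritin, was singled out after its values were seen and averaged 779 ± 7.11 FPKM and 847 ± 3.87 FPKM (limma adjusted p = 0.192). The cyclin-dependent kinase inhibitor genes Cdkn1a, at 28.9 and 29.7 FPKM, and Cdkn1b, at 11.6 and 11.5 FPKM, had log2 differences of 0.04 and -0.02. The groups overlapped for the listed relatives of Gadd45a and Ndrg1, namely Gadd45b (8.71 and 8.93 FPKM), Gadd45g (14.2 and 15.2 FPKM) and Ndrg2 (11.5 and 11.5 FPKM).

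The co-factors were described in the same manner. All 20 co-activators of MYC were tested, 0 were called by limma, and 1 was higher at an unadjusted p under 0.05 (6.03% of all tested genes), with a median log2 difference of 0.02. That gene, Smarcb1, a core subunit of the SWI/SNF remodeller that binds MYC, averaged 11.0 ± 0.426 FPKM in control and 11.8 ± 0.102 FPKM in metformin libraries (limma adjusted p = 0.450). It was also the 1 co-activator whose groups did not overlap, where 8.89% of all tested genes were higher without overlap. Of 18 SIN3 co-repressor genes that serve MXD and MNT, 17 were tested, 0 were called by limma and 1 was higher at an unadjusted p under 0.05, Suds3, at 10.0 ± 0.0551 FPKM and 10.8 ± 0.387 FPKM (limma adjusted p = 0.419). Groups did not overlap for 3 higher genes of that list, Suds3, Sin3b and Sap130, and for 1 lower, Ncor1, of which the last 3 were named after their values were seen. Among all tested genes 8.89% were higher and 8.1% lower without overlap. The median was 0.00565 and changed sign in 4 of 13 alternatives.

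Of the 13 partners of MGA in its Polycomb-type complex, all were tested and 0 were called by limma, with 1 higher and 2 lower at an unadjusted p under 0.05, where 6.03% and 4.81% of all tested genes were, and a median log2 difference of -0.02. E2f6, the repressive E2F protein of that complex, had 10.39, 9.84 and 10.13 FPKM in control and 8.30, 9.19 and 9.29 FPKM in metformin libraries, a log2 difference of -0.16 ± 0.05 (limma adjusted p = 0.359). Cbx3, given above, was the other lower gene. Groups did not overlap for these 2 lower genes and for 0 higher ones, where 8.1% and 8.89% of all tested genes were lower and higher without overlap. Ring1, a ubiquitin ligase subunit named after its values were seen, was higher at 5.66 ± 0.555 FPKM and 6.60 ± 0.425 FPKM, with overlap (limma adjusted p = 0.421). L3mbtl2 and Pcgf6, which define the complex, stood at 16.4 and 15.7 FPKM and at 10.6 and 10.2 FPKM.

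Of 26 factors that act on the stability of MYC protein or mRNA, 25 were tested, 0 were called by limma, and 0 were higher and 1 lower at an unadjusted p under 0.05 (6.03% and 4.81% of all tested genes), with a median log2 difference of 0.04. The lower gene was Cip2a, whose product shields MYC from the phosphatase PP2A, at 34.9 ± 0.896 FPKM in control and 31.9 ± 1.40 FPKM in metformin libraries (log2 difference -0.13 ± 0.04, limma adjusted p = 0.359). Fbxw7, the ubiquitin ligase subunit that recognises phosphorylated MYC, stood at 5.42 and 5.73 FPKM, with a log2 difference of 0.07. In the whole list groups did not overlap for 3 higher genes, Fbxw7 among them, and for 1 lower. Of all tested genes, 8.89% were higher and 8.1% lower without overlap. Of 19 factors known to act upstream of Myc, 17 were tested, and 0 were called or had an unadjusted p under 0.05 in limma, with a median log2 difference of -0.02. Lef1 and Tcf7l2, the Wnt pathway factors, were listed at 0 in every library, whereas Stat5a and Stat5b, which act downstream of cytokine receptors, stood at 34.1 and 34.8 FPKM and at 41.0 and 40.5 FPKM.

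**Figure D4:**
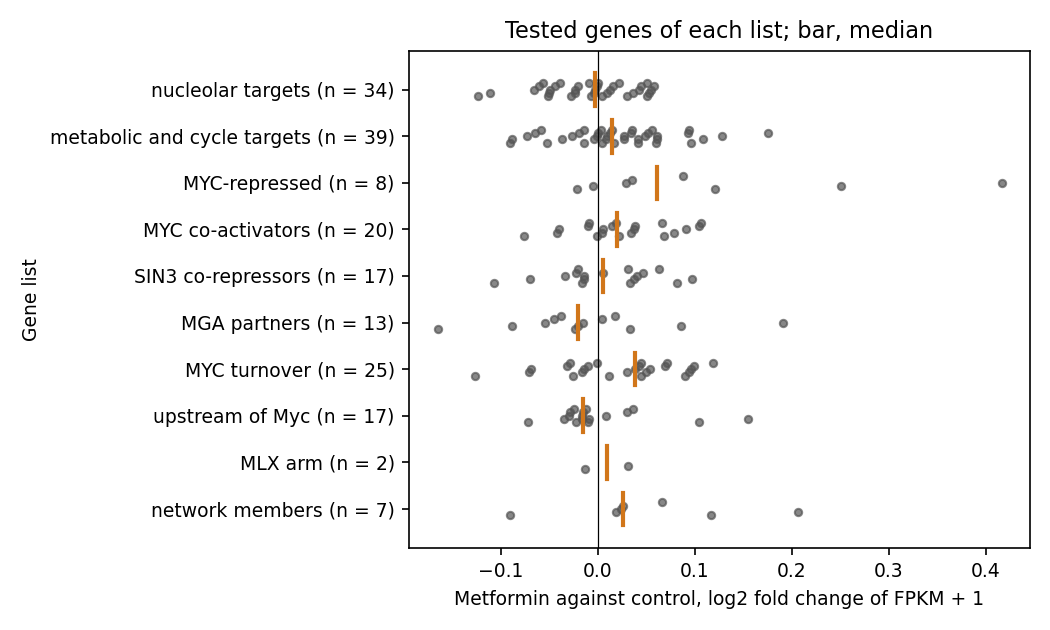
Log2 difference of FPKM + 1, metformin against control, for every tested gene of the 9 related lists and the 7 network members, with 1 grey point a gene and an orange bar at the median. The medians lie between -0.02 and 0.06, and the points farthest to the right are Gadd45a at 0.42 and Ndrg1 at 0.25 among the MYC-repressed genes.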

How the data were processed

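RNA-seq libraries, 3 control and 3 metformin-treated, were analysed, grouped by their labels. The deposited table gives FPKM for 55401 Ensembl genes, which include the authors' mapping, counting and scaling. Positions in the table are those of GRCm38, whereas the submitters' processing notes name HISAT2, DESeq2 and mm9 with no role. No sample column was left unused (0). The members and gene lists were chosen with earlier results of these data known.

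Depth was estimated from single-exon genes under 400 bp. Values were fitted as log2(FPKM + 1) for genes averaging 1 FPKM or more with limma 3.58.1 (R 4.3.3, lmFit and eBayes with trend, two-sided, Benjamini-Hochberg adjustment, threshold 0.05). The fit was tested on simulated data. Gene lists were written from general knowledge, and older symbols were matched through RefSeq. Named genes were the 10 members, up to 2 higher and up to 2 lower genes of each list with the largest difference among those without overlap and with an unadjusted p under 0.05, and the 5 genes most like Myc. Any gene named outside this rule was picked with its values in view.

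The alternatives tried were 0.1 as the pseudocount, no filter, a mean of at least 10 FPKM, rescaling to the same sum (TPM), quantile normalization, no trend, a replicate block and each library left out. No test on counts was made, since FPKM of longer genes hold no counts. Scripts used Python 3.11.15, numpy 2.4.6, pandas 2.3.3 and matplotlib 3.10.9.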

Additional observations from a re-analysis of the deposited data

How the results depend on the processing

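The 21 genes of the related lists with an unadjusted p under 0.05 kept their direction and were not called under any alternative that tested them. These alternatives numbered 13 for 16 genes and 12 for Dusp2, Gadd45a, Ndrg1, E2f6 and Ring1, which average under 10 FPKM. Limma adjusted p-values ran from 0.0716 to 0.702. The genes were picked by that p in the same libraries, and their groups overlapped only for Ncl and Ring1. Their kept direction was therefore largely fixed by the choice, and nothing is read from it. Over all tested genes, 3 were called lower with no filter, and 0 to 1 with 1 library left out, the 1 without control replicate 3 or without metformin replicate 3. The median of the network members was 0.0679 with a mean of at least 10 FPKM, where only Myc and Max remained, and 0.0103 to 0.0821 with 1 library left out, the highest without metformin replicate 2. The median of the MLX arm was 0.0315 at that filter, where 1 gene remained, and that of the MYC-repressed genes was 0.0139 with no filter, where the 5 genes near 0 FPKM entered. With 1 library left out, the median was -0.0195 to 0.00501 for the nucleolar targets, 0.0111 to 0.0297 for the metabolic and cell cycle targets, and 0.0213 to 0.0451 for the turnover factors. It was 0.0337 to 0.0830 for the MYC-repressed genes, 0.0103 to 0.0295 for the co-activators, -0.0359 to -0.00449 for the MGA partners, -0.0222 to -0.0041 for the upstream factors, -0.00262 to 0.0180 for the MLX arm and -0.00393 to 0.0150 for the SIN3 co-repressors. The cause of the shifts with 1 library left out was not tested. Same-numbered libraries did not deviate together (correlations of -0.0317 to 0.0479), and with a replicate block 2 genes were called higher and 0 lower, with 578 and 451 at an unadjusted p under 0.05 and a network median of 0.03. Depth limits the values of Mxd1 and Mxd3, which rest on about 63 and 74 fragments a library, and leaves Mycl and Mycn at or under the limit of detection.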
